A study of Sus scrofa with 12 samples.

Results

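ATP-binding cassette (ABC) transporters were followed in interstitial cells of the pig (Sus scrofa) aortic valve, which lay down and repair leaflet matrix, in culture. The members were the rows of the deposited gene table whose symbol starts with ABC, one letter from A to G and a number, which gave 33 of 22861 genes. They carry 32 symbols, because ABCA1 is listed under both of the IDs ENSSSCG00000005423 and ENSSSCG00000026173. Both ABCA1 rows enter every count of members and every sum below. The drug efflux transporters (ABCB1, ABCG2 and the ABCC subfamily, 8 rows) and the sterol transporters (ABCA1 and ABCG1, 3 rows) were described apart from the 22 other members. The rule for members used names alone and no measured value, but it was set with earlier results of these data known.

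Most ABC proteins use the energy of ATP to move substrates across a membrane, and cells use them to expel drugs and their conjugates, to hand cholesterol and phospholipids to apolipoproteins, and to supply mitochondria, peroxisomes and lysosomes. ABCB1 (P-glycoprotein) and ABCG2 are the classic multidrug pumps of barrier tissues and resistant tumour cells. ABCA1 loads cholesterol onto lipid-poor apolipoprotein A-I and is a target of the liver X receptors, which sense oxysterols. The ABCE and ABCF proteins have no membrane span and act on ribosomes and translation.

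The 12 libraries fell into 4 groups of 3, labelled as biological replicates. Stage 1 cells were taken at day 5 and Stage 2 cells at day 8 of growth on glass in DMEM. The later cells had reached Stage 3 of calcification and received either KPT or DMSO, which is taken here as its solvent. The labels state neither the day of the Stage 3 libraries nor the dose and exposure time of KPT. The labels give KPT no fuller name, and KPT code names are known for inhibitors of the nuclear export receptor XPO1. The titles name DMSO at Stage 3 only, so DMSO and stage cannot be told apart. Whether the KPT cultures also held DMSO is not in the titles. No label ties a replicate to an animal, so p-values measure the spread between cultures, which may be technical.

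Messenger RNA levels are given as RPKM, reads per kilobase of exon scaled to library size, with library totals from 13188023 to 24724019 recovered from the values. All 12 markers of valve interstitial cells were found, and their summed level was 24884 to 25697 RPKM in Stage 3+KPT libraries and 39189 to 43135 in Stage 3+DMSO libraries, after 39714 to 40089 at Stage 1 and 42288 to 43539 at Stage 2. With KPT these 12 markers were called in both directions (4 higher and 6 lower). VIM fell with KPT, to 4606 ± 198 RPKM against 10719 ± 810 with DMSO (SD, n = 3 each, log2 fold change -1.22, adjusted p = 1.20e-08), and ACTA2 to 2278 ± 242 RPKM against 8571 ± 1149 (-1.91, adjusted p = 1.01e-08). POSTN was higher with KPT, at 2677 to 3095 RPKM against 929 to 1187 with DMSO. MGP was also higher, at 5308 to 5574 RPKM against 3840 to 4903. Of the 8 macrophage and leukocyte markers, all found, CD14 was at 9.76 to 11.5 RPKM in Stage 3+KPT libraries and 10.8 to 12.9 in Stage 3+DMSO libraries, after 5.38 to 6.45 at Stage 1 and 10.6 to 12.0 at Stage 2, and CD68 was at 1.095 to 5.58 across all libraries. The leukocyte markers CD163 and ITGAM were at 0 in every library, and PTPRC, CSF1R, AIF1 and TYROBP stayed under 1 RPKM, as did VWF, KDR and TEK of the endothelium and all 4 epithelial markers found. The summed level of the 6 pericyte and smooth muscle markers found was 221 to 225 RPKM in Stage 3+KPT libraries and 502 to 552 in Stage 3+DMSO libraries, after 1006 to 1052 at Stage 1 and 973 to 1249 at Stage 2. CNN1 was most of this sum in every group but Stage 3+KPT, and the members were called in both directions with KPT (2 higher and 3 lower of 6). CNN1 had 51.7 to 72.8 RPKM in Stage 3+KPT libraries and 373 to 395 in Stage 3+DMSO libraries, while the pericyte marker RGS5 had 47.1 to 63.6 with KPT and 3.08 to 3.496 with DMSO, and NOTCH3 51.3 to 56.3 with KPT and 17.0 to 25.03 with DMSO. The summed level of the 6 endothelial markers found, mostly ERG and PECAM1, was 32.2 to 36.2 RPKM in Stage 3+KPT libraries and 65.1 to 82.6 in Stage 3+DMSO libraries. The part of these marker levels in the results on ABC genes was not tested, and in bulk RNA fewer cells of a type and less RNA per cell cannot be told apart.

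Of the 33 members, 20 passed the filter for testing (at least 1 RPKM in at least 3 libraries), of which 5 were drug efflux, 2 sterol and 13 other genes. Their mean level over all libraries ran from 0.754 RPKM for ABCB9 to 78.9 RPKM for ABCF1. Summed over the 33 rows, ABC transcripts came to 382 to 389 RPKM at Stage 1, 343 to 361 at Stage 2 and 436 to 445 at Stage 3+DMSO. With KPT the sum was 531 to 541 RPKM, against 436 to 445 with DMSO. The drug efflux genes had a summed level of 167 to 172 RPKM in Stage 3+KPT libraries and 111 to 137 in Stage 3+DMSO libraries, while Stage 1 had 62.4 to 67.5 and Stage 2 had 55.2 to 60.2. The sterol rows summed to 38.0 to 45.9 RPKM in Stage 3+KPT libraries and 12.4 to 18.0 in Stage 3+DMSO libraries, with 3.27 to 5.06 at Stage 1 and 7.95 to 10.02 at Stage 2. The other members held a narrower range, from 279 RPKM in the lowest Stage 2 library to 328 RPKM in the highest Stage 3+KPT library.

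**Figure D1:**
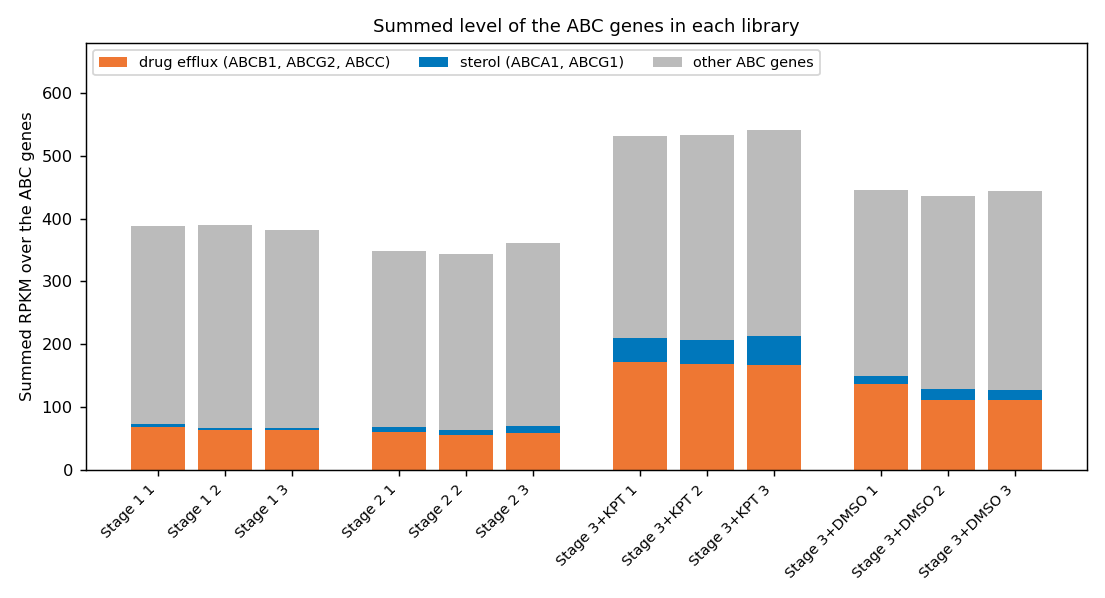
Summed RPKM of the 33 ABC rows in each of the 12 libraries (one bar per library, numbered by replicate), split into drug efflux, sterol and other genes. The totals are 531 to 541 RPKM in Stage 3+KPT libraries and 436 to 445 in Stage 3+DMSO libraries, and the drug efflux segment is under 68 RPKM in all 6 Stage 1 and Stage 2 libraries.

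Each comparison was tested with limma on log2(RPKM + 1) over 13046 genes, and a gene was called at a Benjamini-Hochberg adjusted p under 0.05. Fold changes are on that scale and understate the change of low genes. The comparisons share libraries (Stage 3+DMSO stands in 3 of the 4), so they are not independent of each other. At Stage 2 against Stage 1, 4 of the 20 tested members were higher (16.3% of all tested genes were) and 7 lower (24.4% of all tested genes). The share called in either direction was 11 of 20 members, against 40.7% of all tested genes. At Stage 3+DMSO against Stage 2, 9 members were higher (33.0% of all tested genes) and 2 lower (11.1%), and 44.1% of all genes were called in either direction. At Stage 3+DMSO against Stage 1, 8 members were higher (30.5%) and 3 lower (17.3%), with 47.7% of all genes called. At Stage 3+KPT against Stage 3+DMSO, 8 members were higher (30.5%) and 3 lower (29.5%), with 60.0% of all genes called.

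The groups did not overlap for 15 of the 20 tested members at Stage 2 against Stage 1 (52.5% of all tested genes), for 10 at Stage 3+DMSO against Stage 2 (51.1%), for 13 at Stage 3+DMSO against Stage 1 (59.0%) and for 12 at Stage 3+KPT against Stage 3+DMSO (65.2%). The median log2 fold change of the tested members was -0.05, 0.16, 0.07 and 0.09 in these comparisons, in that order, and that of all tested genes was -0.05, 0.15, 0.10 and 0.02. Rescaling the libraries by the median ratio shifted the median of all genes by -0.16 at Stage 3+DMSO against Stage 2 and by -0.11 against Stage 1. The split of calls over all tested genes then became 50.8% higher, against 74.9% as deposited, in the first of these and 48.4%, against 63.8%, in the second. Among the members the split became 6 higher and 4 lower in the first and 7 higher and 6 lower in the second.

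**Figure D2:**
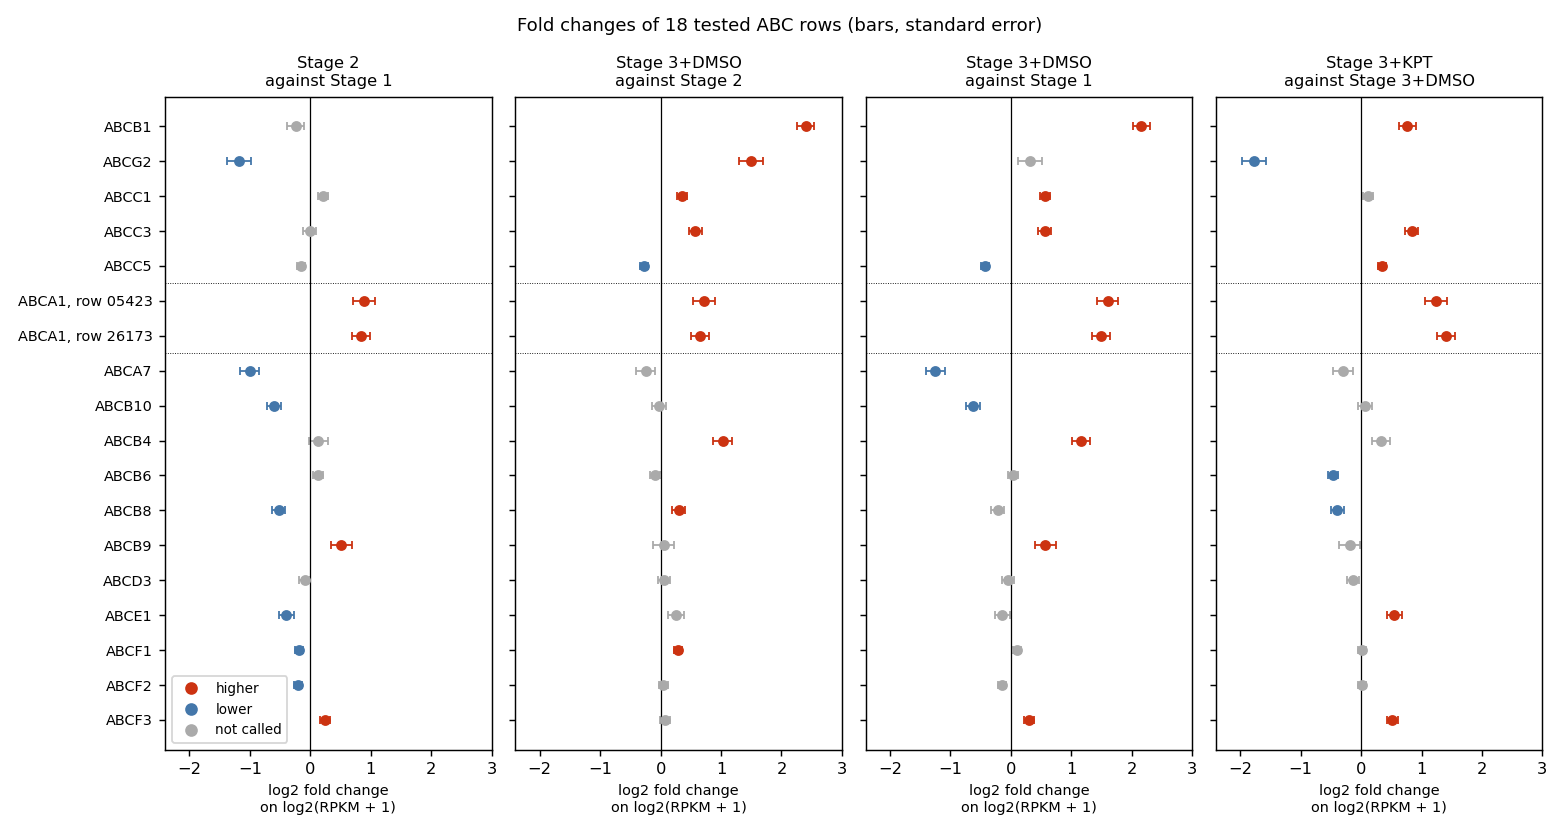
Log2 fold change on the log2(RPKM + 1) scale of 18 of the 20 tested ABC rows in the 4 comparisons, with bars for the standard error and colour for the call (higher, lower or not called). Drug efflux genes stand above the first dotted line, the 2 ABCA1 rows between the lines and other members below. ABCB1 lies at 2.40 for Stage 3+DMSO against Stage 2 and ABCG2 at -1.77 for Stage 3+KPT against Stage 3+DMSO.

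Among the drug efflux genes, ABCB1 reached the highest level. It is annotated at chromosome 9, 102544383 to 102626450, on the plus strand, in coordinates whose build the files do not name. ABCB1 had 11.6, 11.9 and 12.3 RPKM in the Stage 1 libraries, 9.80, 8.87 and 11.3 in the Stage 2 libraries and 75.7, 49.4 and 49.2 in the Stage 3+DMSO libraries. The early groups lay close together and every Stage 3 library stood far above them. In Stage 3+KPT libraries ABCB1 averaged 97.4 ± 2.38 RPKM (99.5, 94.8 and 97.9), against 58.1 ± 15.2 RPKM in Stage 3+DMSO libraries (SD, n = 3 each). The KPT libraries were tightly grouped, and the DMSO libraries were not, with replicate 1 well above the other 2.

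ABCB1 rose at Stage 3+DMSO against Stage 2 by a log2 fold change of 2.40 (SE 0.14, adjusted p = 1.35e-07), which ranked 8 from the highest of the 13046 genes. Against Stage 1 the rise was 2.16 (SE 0.14, adjusted p = 1.36e-07), at rank 52. With KPT it rose again, by 0.76 (SE 0.14, adjusted p = 4.04e-04). Between Stage 2 and Stage 1 the difference of -0.24 (95% interval -0.54 to 0.06) was not called (adjusted p = 0.183). That value passed the threshold when Stage 3+DMSO replicate 1 was left out of the shared fit (adjusted p = 0.0265), with a range of 0.0265 to 0.429 over all 22 alternatives. ABCB1 made up 17.8 to 18.7% of the summed ABC level in Stage 3+KPT libraries and 11.1 to 17.0% in Stage 3+DMSO libraries, while its share was 2.99 to 3.22% at Stage 1 and 2.59 to 3.13% at Stage 2.

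The change in ABCB1 ran along the whole gene model. Of its 31 exons, 29 held at least 20 reads over the 12 libraries, and all 29 were higher in every Stage 3+DMSO library than in every Stage 2 or Stage 1 library. In group means all 29 were also higher with KPT than with DMSO, and for 26 of them the libraries did not overlap. The median log2 ratio over exons was 2.41 at Stage 3+DMSO against Stage 2 and 0.76 at Stage 3+KPT against Stage 3+DMSO. Exons of a gene share libraries and are no replicates, so no test was made over them. Some annotated exons also hold equal reads, as ABCB1 exons 30 and 31 (4030 each) and ABCG2 exons 19 and 20 (406 each). Counts of exons, here and for other members, may therefore include the same reads more than once.

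ABCG2, the breast cancer resistance protein, followed another course. It is annotated at chromosome 8, 140102457 to 140228767, on the plus strand. ABCG2 had 7.82, 7.46 and 6.24 RPKM in the Stage 1 libraries, 3.25, 1.72 and 3.04 in the Stage 2 libraries and 7.72, 12.3 and 7.96 in the Stage 3+DMSO libraries. It averaged 2.00 ± 0.39 RPKM in Stage 3+KPT libraries (2.05, 2.36 and 1.59) and 9.34 ± 2.60 RPKM in Stage 3+DMSO libraries (SD, n = 3 each). Levels were thus low at Stage 2 and with KPT and higher at Stage 1 and with DMSO, with no overlap between the low and the high groups.

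ABCG2 fell at Stage 2 against Stage 1 by a log2 fold change of -1.18 (SE 0.20, adjusted p = 5.94e-04) and rose at Stage 3+DMSO against Stage 2 by 1.49 (SE 0.20, adjusted p = 8.57e-05). With KPT it fell by -1.77 (SE 0.20, adjusted p = 7.49e-06). Stage 3+DMSO against Stage 1 was not called, at 0.32 (95% interval -0.12 to 0.75, adjusted p = 0.210). The 24 of its 29 exons with at least 20 reads all had lower means with KPT than with DMSO, 20 of them without overlap of the libraries, and all 24 had higher means at Stage 3+DMSO than at Stage 2. A near copy, named ABCG2A in a table of gene symbols, is annotated inside the coordinates of ABCG2, and 13 of the 29 ABCG2 exons have a length that an ABCG2A exon also has. Its log2 fold changes were alike (-1.40, 1.70, 0.30 and -1.80 in the 4 comparisons, the third not called), so reads may have been split between the copies and the level of either one is uncertain.

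The ABCC pumps export organic anions and conjugates. ABCC1 (MRP1), which exports glutathione conjugates and leukotriene C4, had 16.1, 14.4 and 15.5 RPKM in the Stage 1 libraries, 18.9, 17.4 and 17.6 in the Stage 2 libraries and 22.1, 21.5 and 26.1 in the Stage 3+DMSO libraries. The 3 stages did not overlap. It averaged 25.2 ± 0.51 RPKM in Stage 3+KPT libraries and 23.2 ± 2.53 RPKM in Stage 3+DMSO libraries (SD, n = 3 each), and these groups overlapped.

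ABCC1 rose at Stage 3+DMSO by a log2 fold change of 0.56 against Stage 1 (SE 0.08, adjusted p = 1.34e-04) and by 0.35 against Stage 2 (adjusted p = 0.00474). Under median-ratio rescaling the rise against Stage 2 was 0.19 and no longer called (adjusted p = 0.101, range over the alternatives 0.00404 to 0.101), and on recovered reads with limma-voom it was 0.21. Its differences of 0.22 between Stage 2 and Stage 1 (adjusted p = 0.0535) and of 0.12 with KPT (adjusted p = 0.237) were not called. Both passed the threshold with Stage 3+DMSO replicate 3 left out, at adjusted p of 0.0300 and 0.0477, with ranges over the alternatives of 0.0155 to 0.175 and 0.0477 to 0.561. The difference between Stage 2 and Stage 1 was also called under median-ratio rescaling (0.27, adjusted p = 0.0248) and with limma-voom (0.29, adjusted p = 0.0155). A minimum RPKM of 5 gave a call too (adjusted p = 0.049).

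ABCC3 (MRP3), which exports glucuronides and bile acids, had 9.66, 8.31 and 8.06 RPKM in the Stage 1 libraries, 9.07, 8.10 and 8.59 in the Stage 2 libraries and 15.7, 11.9 and 12.4 in the Stage 3+DMSO libraries. Stage 1 and Stage 2 overlapped, and Stage 3+DMSO lay above both. ABCC3 averaged 24.4 ± 1.34 RPKM in Stage 3+KPT libraries and 13.4 ± 2.08 RPKM in Stage 3+DMSO libraries (SD, n = 3 each), again without overlap. It rose by a log2 fold change of 0.57 at Stage 3+DMSO against Stage 2 (SE 0.11, adjusted p = 0.00101), by 0.56 against Stage 1 (adjusted p = 0.001) and by 0.83 with KPT (adjusted p = 2.58e-05). The direction of ABCC3 was the same as that of ABCB1 in these comparisons.

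ABCC5 (MRP5), known as an exporter of cyclic nucleotides, was the one drug efflux gene called lower at Stage 3+DMSO against the earlier stages. It had 21.8, 19.8 and 20.6 RPKM in the Stage 1 libraries, 18.7, 18.9 and 18.3 in the Stage 2 libraries and 15.04, 15.4 and 15.1 in the Stage 3+DMSO libraries, in 3 groups that did not overlap. With KPT it averaged 19.6 ± 0.70 RPKM, against 15.2 ± 0.21 RPKM with DMSO (SD, n = 3 each), and the KPT libraries lay in the range of the earlier stages. ABCC5 fell by a log2 fold change of -0.28 at Stage 3+DMSO against Stage 2 (SE 0.07, adjusted p = 0.00473), or by -0.44 after rescaling. It fell by -0.43 against Stage 1 (adjusted p = 2.15e-04) and rose by 0.35 with KPT (adjusted p = 6.22e-04).

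**Figure D3:**
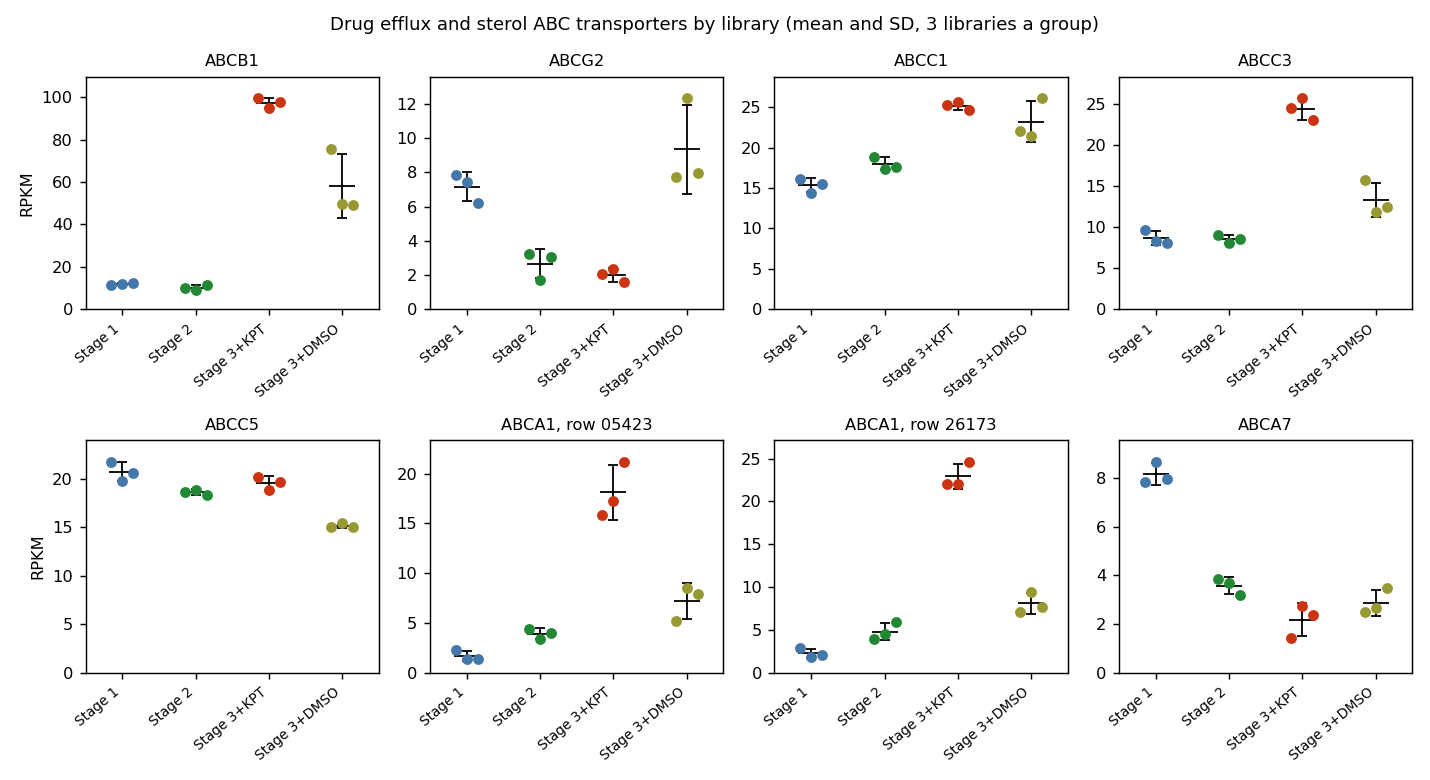
RPKM of the tested drug efflux and sterol rows and of ABCA7 in each library (points), with the mean and SD of 3 libraries per group, each panel on its own linear axis from 0. ABCB1, ABCC3 and both ABCA1 rows have their highest libraries with KPT, and ABCG2 has its lowest values at Stage 2 and with KPT.

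The sterol transporter ABCA1 is listed in 2 rows on chromosome 1 with opposite strands, at 275740052 to 275862912 (minus, ENSSSCG00000005423) and at 275474265 to 275507927 (plus, ENSSSCG00000026173), with 232125 bp between them. They share only 3 exon lengths of 26 and of 32. Exons 15 and 16 of the first row have the lengths of exons 13 and 14 of the relative ABCA7 (223 and 222 bp). Exons 20 to 25 of the second row have those of ABCA7 exons 37 to 42 (130, 121, 63, 107, 142 and 135 bp). This is the layout of an early and a late part of 1 gene more than of copies, but sequences were not compared. Counts of members and sums may thus hold ABCA1 more than once. The first had 2.24, 1.40 and 1.41 RPKM in the Stage 1 libraries, 4.39, 3.37 and 4 in the Stage 2 libraries and 5.19, 8.51 and 7.92 in the Stage 3+DMSO libraries. The second had 2.82, 1.86 and 2.05 RPKM in the Stage 1 libraries, 3.92, 4.55 and 5.90 in the Stage 2 libraries and 7.10, 9.46 and 7.72 in the Stage 3+DMSO libraries. In both rows the 3 stages stood apart in order of stage. With KPT the first averaged 18.1 ± 2.76 RPKM, against 7.21 ± 1.78 with DMSO, and the second 22.9 ± 1.49 RPKM, against 8.09 ± 1.22 with DMSO (SD, n = 3 each). The ratio of the first row to the second lay between 0.678 and 1.121 in all 12 libraries.

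The ABCA1 rows were the only members called in all 4 comparisons, each time higher. For the rows in the same order, the log2 fold change was 0.88 and 0.83 at Stage 2 against Stage 1 (adjusted p = 0.00195 and 8.76e-04) and 0.72 and 0.66 at Stage 3+DMSO against Stage 2 (adjusted p = 0.00619 and 0.00354). At Stage 3+DMSO against Stage 1 it was 1.60 and 1.49 (adjusted p = 1.46e-05 and 5.88e-06), and with KPT 1.23 and 1.40 (adjusted p = 6.89e-05 and 4.45e-06). On recovered reads with limma-voom, which adds no pseudocount of 1 RPKM, the first row's value at Stage 2 against Stage 1 was 1.34. All 27 and all 31 exons with at least 20 reads had higher means with KPT than with DMSO, 26 and 27 of them without overlap. The other sterol exporter, ABCG1, was barely detected, with a highest value of 0.20 RPKM in a Stage 3+DMSO library and 26 reads in all, so no change in it could be measured at this depth.

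Other genes of the sterol pathway, from a list of 20 names of which 17 were found and tested, were called in both directions. At Stage 2 against Stage 1, 6 were higher and 4 lower, and at Stage 3+DMSO against Stage 2, 4 were higher and 3 lower. Against Stage 1, Stage 3+DMSO had 6 higher and 7 lower. With KPT 9 were higher and 4 lower, with a median log2 fold change of 0.29 against 0.02 over all tested genes. The share of all tested genes called in either direction was 40.7%, 44.1%, 47.7% and 60.0% in these comparisons, in that order. MYLIP, a ubiquitin ligase for the LDL receptor and like ABCA1 a liver X receptor target, rose in all 4 comparisons. It averaged 142 ± 2.49 RPKM in Stage 3+KPT libraries and 47.7 ± 12.8 in Stage 3+DMSO libraries (log2 fold change 1.59, adjusted p = 1.47e-06), after 11.1 ± 0.72 at Stage 1 and 26.6 ± 2.90 at Stage 2. The receptors themselves, named here after their values were seen, rose with KPT. NR1H3 averaged 56.0 RPKM with KPT and 36.3 with DMSO (log2 fold change 0.61, adjusted p = 5.13e-05), and NR1H2 97.2 and 72.4 (0.42, adjusted p = 1.31e-04). Neither receptor was called between stages.

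SOAT1, which esterifies cholesterol for storage, averaged 22.4 ± 2.02 RPKM in Stage 3+KPT libraries and 6.11 ± 0.53 in Stage 3+DMSO libraries (log2 fold change 1.72, adjusted p = 3.50e-08). SCARB1, the HDL receptor, moved the other way, at 7.67 ± 0.22 RPKM with KPT and 30.6 ± 5.84 with DMSO (-1.85, adjusted p = 3.39e-08). LIPA, the lysosomal acid lipase, rose by 1.37 at Stage 3+DMSO against Stage 2 (adjusted p = 4.03e-07) and by 1.82 against Stage 1 (adjusted p = 2.67e-08). PLTP, a phospholipid transfer protein, rose by 1.24 at Stage 2 (adjusted p = 0.00166) and by 1.67 at Stage 3+DMSO (adjusted p = 1.34e-04), both against Stage 1. STARD4, a carrier of free cholesterol, fell by -0.90 at Stage 2 against Stage 1 (adjusted p = 3.41e-04).

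Genes of xenobiotic response and conjugation numbered 16 tested of 20 listed. The counts higher and lower were 6 and 3 at Stage 2 against Stage 1, 7 and 4 at Stage 3+DMSO against Stage 2, 6 and 4 against Stage 1 and 7 and 4 with KPT. Among all tested genes, 40.7%, 44.1%, 47.7% and 60.0% were called in these comparisons, in that order. AHR, the receptor for dioxin-like compounds, averaged 223 ± 18.2 RPKM in Stage 3+KPT libraries and 51.0 ± 4.25 in Stage 3+DMSO libraries (log2 fold change 2.104, adjusted p = 4.79e-09). AHR also rose at Stage 2 against Stage 1 (1.08, adjusted p = 1.34e-05) and fell at Stage 3+DMSO against Stage 2 (-0.99, adjusted p = 1.94e-05). The conjugation and redox genes NQO1 (-1.22, adjusted p = 1.43e-06) and GSTK1 (-1.18, adjusted p = 2.06e-07) fell with KPT. Between Stage 3+DMSO and Stage 1, NQO1 had risen by 1.06 (adjusted p = 1.09e-05) and GSTA4, a glutathione transferase, by 1.14 (adjusted p = 6.51e-06).

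ABCA7, a close relative of ABCA1 that is linked to phospholipid handling and phagocytosis, ran opposite to it across the stages. It had 7.85, 8.69 and 7.96 RPKM in the Stage 1 libraries, 3.86, 3.68 and 3.19 in the Stage 2 libraries and 2.48, 2.68 and 3.48 in the Stage 3+DMSO libraries. Stage 1 stood apart, and the later stages overlapped. ABCA7 averaged 2.18 ± 0.69 RPKM in Stage 3+KPT libraries and 2.88 ± 0.53 in Stage 3+DMSO libraries (SD, n = 3 each), which overlapped too.

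ABCA7 fell at Stage 2 against Stage 1 by a log2 fold change of -1.004 (SE 0.16, adjusted p = 3.85e-04) and at Stage 3+DMSO against Stage 1 by -1.25 (SE 0.16, adjusted p = 4.43e-05). All 44 of its 46 exons with at least 20 reads had lower means at Stage 2 and at Stage 3+DMSO than at Stage 1. The difference of -0.24 at Stage 3+DMSO against Stage 2 was not called (adjusted p = 0.236), but on recovered reads with limma-voom it was -0.47 and was called (adjusted p = 0.0415, range over the alternatives 0.0415 to 0.521). With KPT the difference of -0.30 was not called (adjusted p = 0.122), and with Stage 3+KPT replicate 2 left out it was -0.43 and was called (adjusted p = 0.0451, range 0.0451 to 0.504).

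ABCB4 moves phosphatidylcholine into bile in the liver and is annotated next to its paralogue ABCB1, at chromosome 9, 102651943 to 102741185, 25493 bp past the end of ABCB1 on the same strand. It had 0.258, 0.404 and 0.406 RPKM in the Stage 1 libraries, 0.649, 0.418 and 0.401 in the Stage 2 libraries and 2.58, 2.09 and 1.51 in the Stage 3+DMSO libraries. It averaged 2.80 ± 0.21 RPKM in Stage 3+KPT libraries and 2.06 ± 0.54 in Stage 3+DMSO libraries (SD, n = 3 each). As for ABCB1, the early groups were low and both Stage 3 groups were higher.

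ABCB4 rose at Stage 3+DMSO by a log2 fold change of 1.03 against Stage 2 (SE 0.15, adjusted p = 1.86e-04) and by 1.16 against Stage 1 (adjusted p = 5.35e-05). ABCB4 reached 1 RPKM in 6 libraries, all of Stage 3, and so passed the filter through the groups where it is high, and a difference from the earlier stages is in part built into its being tested. At this low level the pseudocount sets the size, and with 0.1 in place of 1 the values were 1.87 and 2.23. With KPT the difference of 0.33 was not called (adjusted p = 0.0810). It was called with Stage 3+DMSO replicate 1 left out (0.45, adjusted p = 0.0274, range over the alternatives 0.0274 to 0.310).

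The reads of ABCB4 did not cover its gene model. Of 27 exons, 15 held no read in any library, and 3 exons held 1412 of the 1505 reads (93.8%). These were the last exon (777 bp, 688 reads), exon 13 (171 bp, 442 reads) and exon 24 (198 bp, 282 reads). ABCB1 has 1 exon of 171 bp and 1 of 198 bp, but 0 of 777 bp. Of the 27 ABCB4 exons, 21 have a length that an ABCB1 exon also has. Among those are exons with 0 reads, such as exon 5 (192 bp) and exon 20 (204 bp). ABCB4 is therefore given as uncertain, since the counting may have placed reads of ABCB1 on it, which was not tested.

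**Figure D4:**
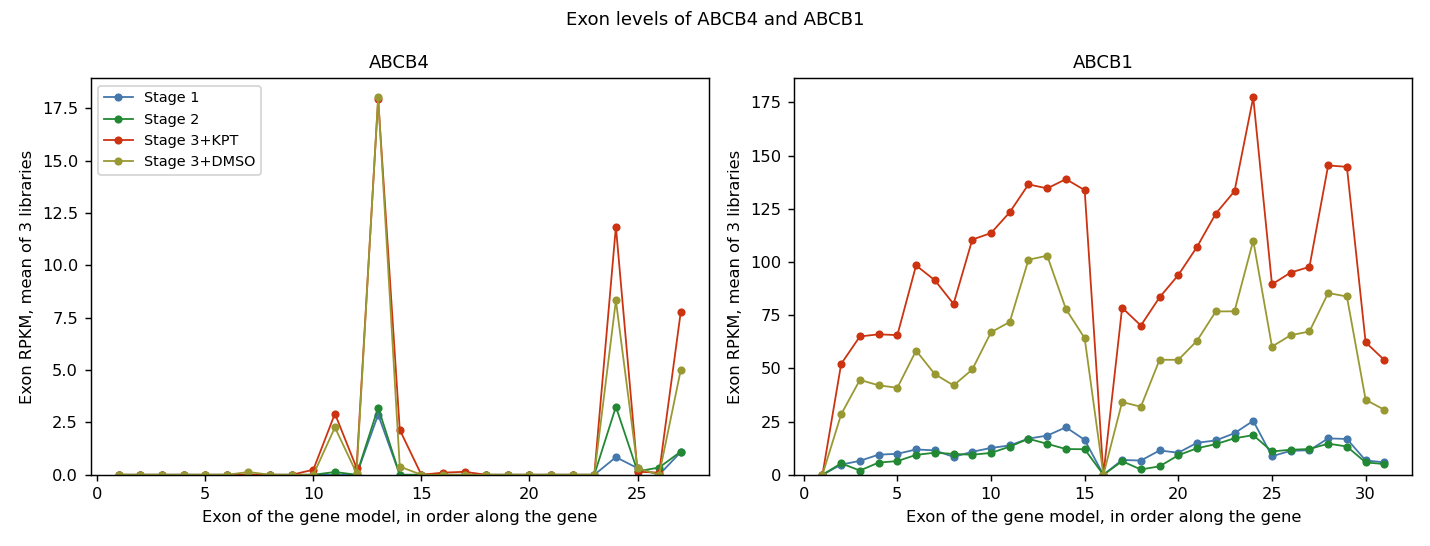
Mean exon RPKM of 3 libraries per group along the gene models of ABCB4 (27 exons) and ABCB1 (31 exons), numbered in order along the gene, on linear axes that differ between the panels. ABCB1 has 29 of 31 exons with at least 20 reads over the 12 libraries, while ABCB4 signal is mostly in exons 13, 24 and 27.

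The mitochondrial and organelle members of the ABCB subfamily changed in different directions. ABCB10, an inner-membrane protein that supports haem synthesis, had 9.51, 10.4 and 8.43 RPKM in the Stage 1 libraries, 5.74, 5.53 and 6.42 in the Stage 2 libraries and 5.68, 6.68 and 5.00 in the Stage 3+DMSO libraries. It fell at Stage 2 (log2 fold change -0.60, adjusted p = 0.00137) and at Stage 3+DMSO (-0.62, adjusted p = 7.39e-04) against Stage 1, and the later groups overlapped. ABCB8, also of the inner membrane, had 27.1, 24.8 and 24.5 RPKM in the Stage 1 libraries, 19.0, 17.3 and 16.2 in the Stage 2 libraries and 18.7, 21.6 and 25.5 in the Stage 3+DMSO libraries. It fell at Stage 2 against Stage 1 (-0.52, adjusted p = 0.00209). With KPT it averaged 16.3 ± 1.20 RPKM, against 21.9 ± 3.43 with DMSO (-0.40, adjusted p = 0.00621).

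For ABCB8 the call at Stage 3+DMSO against Stage 2 (0.30, adjusted p = 0.0352) came with overlapping groups and was lost in 9 of 22 alternatives. Among these was leaving out Stage 2 replicate 2 (adjusted p = 0.0808) or 3 (0.113), or Stage 3+DMSO replicate 2 (0.0713) or 3 (0.154, with a value of 0.19), and the range over the alternatives was 0.0061 to 0.332. Under median-ratio rescaling ABCB8 was at 0.15 in this comparison (adjusted p = 0.332). Its uncalled difference of -0.22 at Stage 3+DMSO against Stage 1 was called with Stage 3+DMSO replicate 3 left out (-0.33, adjusted p = 0.0227, range 0.0178 to 0.617).

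ABCB6, a porphyrin transporter, was called with KPT alone, where it averaged 11.2 ± 0.93 RPKM, against 15.9 ± 1.28 with DMSO (-0.47, adjusted p = 3.84e-04), while its stage means lay between 15.5 and 17.0 RPKM. Under median-ratio rescaling ABCB6 was also called at Stage 3+DMSO against Stage 2 (-0.25, adjusted p = 0.0337, range 0.0312 to 0.808).

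Of 10 genes of mitochondrial iron and haem handling, all tested, 1 was higher and 2 lower at Stage 2 against Stage 1, 5 and 3 at Stage 3+DMSO against Stage 2, 4 and 3 against Stage 1, and 2 and 4 with KPT. Calls in either direction took 40.7%, 44.1%, 47.7% and 60.0% of all tested genes, in that order. UROD, a haem synthesis enzyme, fell at Stage 3+DMSO against Stage 1 (log2 fold change -1.06, adjusted p = 6.59e-06). With KPT, SLC25A37 (mitoferrin-1, a mitochondrial iron importer) averaged 44.4 RPKM, against 20.9 with DMSO (1.05, adjusted p = 1.15e-07), and ISCU, the iron-sulphur scaffold, 174 RPKM against 327 (-0.91, adjusted p = 3.59e-07).

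ABCB9, a lysosomal peptide transporter, was the lowest tested member. It had 0.139, 0.387 and 0.516 RPKM in the Stage 1 libraries, 0.809, 0.904 and 1.03 in the Stage 2 libraries and 1.16, 0.592 and 1.28 in the Stage 3+DMSO libraries. Stage 1 lay below the other stages. ABCB9 passed the filter through the later groups, so a difference from Stage 1 is in part built into its being tested. It rose by a log2 fold change of 0.52 at Stage 2 (adjusted p = 0.0337) and by 0.57 at Stage 3+DMSO (adjusted p = 0.0183), both against Stage 1, or by 1.28 and 1.36 with a pseudocount of 0.1. The first of these calls did not hold when Stage 1 replicate 1 was left out (adjusted p = 0.125), nor without Stage 1 replicate 2 (0.0636) or Stage 2 replicate 2 (0.0733), with a range of 0.0108 to 0.125. The second was lost without Stage 1 replicate 1 (adjusted p = 0.0753, range 0.00642 to 0.0753).

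ABCD3 (PMP70), an abundant protein of the peroxisomal membrane, had 26.6, 23.6 and 24.5 RPKM in the Stage 1 libraries, 20.3, 23.8 and 26.0 in the Stage 2 libraries and 25.6, 21.5 and 25.3 in the Stage 3+DMSO libraries. It averaged 22.0 ± 0.95 RPKM in Stage 3+KPT libraries and 24.2 ± 2.29 in Stage 3+DMSO libraries (SD, n = 3 each), and the groups overlapped in each comparison. ABCD3 was called in none of the 4 comparisons, nor in any alternative. The 95% interval of its log2 fold change with KPT was -0.34 to 0.08.

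Of 11 other peroxisome genes tested, 5 were higher and 1 lower at Stage 2 against Stage 1, 6 and 1 at Stage 3+DMSO against Stage 2, 9 and 0 against Stage 1, and 3 and 4 with KPT. In the comparison with 0 lower, 9 of the 11 passed limma's threshold and the 2 others were not called in either direction. Over all tested genes, 40.7%, 44.1%, 47.7% and 60.0% were called in the 4 comparisons, in that order. At Stage 3+DMSO against Stage 1, 63.8% of all calls were higher as deposited and 48.4% after median-ratio rescaling. Catalase (CAT) averaged 24.7 RPKM at Stage 1, 42.6 at Stage 2 and 65.3 at Stage 3+DMSO, and its rise at Stage 3+DMSO against Stage 1 was 1.36 (adjusted p = 4.29e-07). With KPT the largest changes were in PEX3 (0.71, adjusted p = 0.00265) and PEX13 (0.62, adjusted p = 3.41e-05), both of peroxisome assembly.

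The ABCE and ABCF genes together held 49.9 to 52.4% of the summed ABC level at Stage 1, 49.8 to 50.5% at Stage 2 and 43.1 to 46.5% at Stage 3+DMSO. With KPT they held 42.3 to 42.9%, against 43.1 to 46.5% with DMSO. ABCE1, which splits ribosomes for recycling, had 35.1, 37.1 and 38.6 RPKM in the Stage 1 libraries, 23.5, 28.6 and 32.1 in the Stage 2 libraries and 33.1, 30.5 and 36.9 in the Stage 3+DMSO libraries. Stage 2 had the lowest mean and overlapped Stage 3+DMSO. With KPT it averaged 49.8 ± 8.49 RPKM, against 33.5 ± 3.18 with DMSO (SD, n = 3 each, log2 fold change 0.55, adjusted p = 0.00245), without overlap. The fall at Stage 2 against Stage 1 (-0.39, adjusted p = 0.0265) was lost without Stage 1 replicate 2 (adjusted p = 0.0652) or 3 (0.0807), or Stage 2 replicate 1 (0.0999) or 2 (0.0507), with a range of 0.00845 to 0.125.

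ABCF3 had 19.5, 17.9 and 20.04 RPKM in the Stage 1 libraries, 23.7, 21.2 and 23.4 in the Stage 2 libraries and 22.4, 26.3 and 23.0 in the Stage 3+DMSO libraries. It averaged 34.7 ± 2.30 RPKM in Stage 3+KPT libraries and 23.9 ± 2.097 in Stage 3+DMSO libraries (SD, n = 3 each), without overlap. ABCF3 rose with KPT by a log2 fold change of 0.52 (SE 0.08, adjusted p = 1.68e-04) and at Stage 3+DMSO against Stage 1 by 0.31 (adjusted p = 0.00968), a call lost under median-ratio rescaling (0.20, adjusted p = 0.0746, range 0.00847 to 0.0746). The rise at Stage 2 against Stage 1 (0.24, adjusted p = 0.0384) was lost with a replicate block (adjusted p = 0.0620). It was also lost without any one of Stage 1 replicate 1 (0.0680), 2 (0.141) or 3 (0.0501), or Stage 2 replicate 1 (0.0949) or 3 (0.102), with a range of 0.0117 to 0.141.

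ABCF1, which binds the initiation factor eIF2 and ribosomes, averaged 78.2 ± 4.65 RPKM at Stage 1, 68.4 ± 3.48 at Stage 2 and 84.1 ± 1.38 at Stage 3+DMSO. With KPT it averaged 84.9 ± 5.44 RPKM, against 84.1 ± 1.38 with DMSO. ABCF1 rose at Stage 3+DMSO against Stage 2 (log2 fold change 0.29, adjusted p = 0.00310), which was lost under median-ratio rescaling (0.13, adjusted p = 0.169) and on recovered reads (0.15, adjusted p = 0.117), with a range of 0.00250 to 0.169. ABCF1 and ABCF2 fell at Stage 2 against Stage 1 by -0.19 and -0.20 (adjusted p = 0.0359 and 0.0297), and both calls were lost under rescaling and with single libraries left out. For ABCF1 these were Stage 1 replicate 1 (adjusted p = 0.0691) or 2 (0.150) and Stage 2 replicate 2 (0.105) or 3 (0.107), with a range of 0.0201 to 0.151. For ABCF2 they were Stage 1 replicate 2 (adjusted p = 0.0831) or 3 (0.0968) and Stage 2 replicate 1 (0.0560) or 2 (0.0929), with a range of 0.0146 to 0.102. ABCF2 was called lower at Stage 3+DMSO against Stage 1 after rescaling (-0.26, adjusted p = 0.00537, range 0.00537 to 0.254), against -0.15 as deposited (adjusted p = 0.0773).

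Of 9 tested genes of ribosome recycling and eIF2 function, 1 was higher and 2 lower at Stage 2 against Stage 1 and 4 higher and 2 lower with KPT. At Stage 3+DMSO 5 were higher and 0 lower against Stage 2, and likewise 5 and 0 against Stage 1, the other 4 being uncalled by limma in each. All tested genes were called at 40.7% for Stage 2 against Stage 1, 60.0% with KPT, and 44.1% and 47.7% for Stage 3+DMSO. Of the calls at Stage 3+DMSO, 74.9% against Stage 2 and 63.8% against Stage 1 were higher as deposited. After median-ratio rescaling these shares were 50.8% and 48.4%. HBS1L, the partner of PELO and ABCE1 in rescuing stalled ribosomes, averaged 88.5 ± 5.30 RPKM with KPT and 56.2 ± 3.71 with DMSO (log2 fold change 0.65, adjusted p = 1.60e-04). EIF2S2, a subunit of eIF2, rose at Stage 3+DMSO against Stage 2 (0.62, adjusted p = 1.51e-05) and fell with KPT (-0.49, adjusted p = 3.59e-05).

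The 13 members that were not tested stayed under 0.6 RPKM in every library. Their highest values were 0.565 RPKM for ABCA5, 0.492 for ABCC2, 0.385 for ABCD2, 0.321 for ABCG4, 0.305 for ABCC9, 0.20 for ABCG1, 0.198 for ABCA13, 0.132 for ABCA4, 0.114 for ABCB11 and 0.0151 for ABCC8. ABCB5, ABCG5 and ABCG8 had 0 reads in all 12 libraries, which allows up to 3 reads per library, or at most 0.0602, 0.476 and 0.106 RPKM in the shallowest one, for counting error only. ABCC2 and ABCB11 are apical pumps of hepatocytes, ABCG5 and ABCG8 export plant sterols in gut and liver, and ABCA4 belongs to photoreceptors. ABCC8 and ABCC9 are the sulphonylurea receptors that regulate potassium channels in place of pumping. The ABCC9 row here has 3 exons. A longer ABCC9 row of 34 exons, outside the choice of members, reached 0.794 RPKM in a Stage 3+KPT library and was not tested either. ABCA5 had 118 reads in the 3 Stage 3+KPT libraries and 57 in the 3 Stage 3+DMSO libraries, and 6 and 8 in those of Stage 1 and Stage 2, values too low to test.

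A further 12 rows of ABC genes, TAP1 and TAP2 among them, stood outside the choice of members, and 9 of them were tested. Their symbol in the deposited gene table was missing or did not match the rule. ABCC4 (MRP4), an exporter of cyclic nucleotides and prostaglandins, had 3.41, 4.87 and 4.71 RPKM in Stage 3+KPT libraries, against 2.05, 1.69 and 1.60 in Stage 3+DMSO libraries. It rose with KPT (log2 fold change 0.93, adjusted p = 9.61e-04) and at Stage 3+DMSO against Stage 1 (0.57, adjusted p = 0.0258). At Stage 1 ABCC4 had 1.13, 0.546 and 0.980 RPKM. It passed the filter mostly through the later groups, so a difference from Stage 1 is in part built into its being tested. ABCC10 fell at Stage 2 and at Stage 3+DMSO against Stage 1, by -0.47 in each (adjusted p = 0.0319 and 0.0265). ABCA3, a lipid transporter of surfactant bodies in lung, fell with KPT (-0.34, adjusted p = 0.0133). ABCD4, which takes part in vitamin B12 release from lysosomes, rose at Stage 3+DMSO against Stage 2 (0.37, adjusted p = 0.0130) and fell with KPT (-0.66, adjusted p = 1.37e-04). These values had no leave-one-out check.

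The peptide transporters TAP1 and TAP2 are ABC proteins of the B subfamily that work as a pair in loading peptides onto MHC class I, and each has 2 IDs. With KPT they were called in opposite directions. TAP1 (ENSSSCG00000025618) had 114, 125 and 106 RPKM in Stage 3+KPT libraries, against 78.8, 55.5 and 45.3 in Stage 3+DMSO libraries (log2 fold change 0.96, adjusted p = 1.75e-04). TAP2 (ENSSSCG00000025593) had 33.8, 37.9 and 35.1 RPKM in Stage 3+KPT libraries, against 105, 65.4 and 70.6 in Stage 3+DMSO libraries (-1.12, adjusted p = 1.49e-05). The second IDs gave 0.95 and -1.12. Relative to Stage 1, both had risen at Stage 3+DMSO, TAP1 by 0.45 (adjusted p = 0.0329, groups overlapping) and TAP2 by 0.87 (adjusted p = 2.33e-04). Of the 7 tested genes of peptide loading, these included, 1 was higher and 0 lower at Stage 2 against Stage 1, 2 and 0 at Stage 3+DMSO against Stage 2, 5 and 0 against Stage 1, the rest uncalled by limma, and 2 and 3 with KPT. For all tested genes the share called was 40.7%, 44.1%, 47.7% and 60.0%, in that order. At Stage 3+DMSO against Stage 1, 63.8% of all calls were higher as deposited and 48.4% after rescaling. TAPBP, which bridges TAP and MHC class I, fell with KPT (-0.72, adjusted p = 4.28e-04). KCNJ8, the pore of the potassium channel that ABCC9 regulates, rose at Stage 3+DMSO against Stage 1 (0.98, adjusted p = 0.00186), to 2.06 ± 0.47 RPKM against 0.57 ± 0.39. Its Stage 1 mean was under the filter of 1 RPKM, so a difference from Stage 1 may be in part built into its being tested.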

How the data were processed

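Polyadenylated RNA of 12 cultures was sequenced with a stranded kit, per the labels' protocols. The submitters' processing notes list TopHat2 2.1.0. Counter, build, annotation and use of strand in counting are not given in the sources used, so near copies and overlapping genes may share reads. The authors deposited RPKM values for 22861 genes and 189618 exons, and no count table was used. RPKM multiplied by exon length and a library total gave whole reads for 100% of gene and exon values (within 0.001 read). Library totals were 13188023 to 24724019, and reads summed over genes were 1.75 to 1.81 times the total, for a reason that is not given. Replicates correlated across genes with r of 0.985 to 0.994, and no pair agreed within counting noise (chi-square divided by its degrees of freedom was 5.68 to 44.4).

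The main test was limma 3.58.1 (R 4.3.3) on log2(RPKM + 1), with all 12 libraries in one fit, a coefficient per group, an expression trend and Benjamini-Hochberg adjustment over the 13046 genes with at least 1 RPKM in at least 3 libraries. Calls are at adjusted p under 0.05. The procedure was tested on simulated data. The settings varied were the pseudocount (0.1 or 0.5), the filter (none, or a minimum RPKM of 5), median-ratio rescaling, limma-voom on recovered reads with TMM scaling, no trend, the 2 groups alone, blocking on replicate number, omission of each library in turn and, added after seeing the data, leaving out replicate 1 of every group.

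The members and gene lists were chosen with earlier results of these data known. All tested drug efflux and sterol members are named, and of the others up to 5 rises and 5 falls per comparison among called members without overlap of the groups, a tested member never called, and of each list of partner genes up to 3 called genes with the largest change. Some genes this rule takes are left out for length. 1 further ABCC gene, and the values of 2 members that the counts and sums include, are not reported here. The 95% intervals of log2 fold changes are limma's, from the spread between libraries, and the limits given for 0 reads cover counting error only. Sequences were not used.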

Additional observations from a re-analysis of the deposited data

How the results depend on the processing

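Of 80 results (20 tested members in 4 comparisons), 44 were called, and 33 of these kept their call in each alternative run (up to 22), while 11 lost it in at least 1. Of 36 uncalled results, 13 were called in at least 1, and 0 changed direction while called. The calls kept throughout were 6 of 11 at Stage 2 against Stage 1, 7 of 11 at Stage 3+DMSO against Stage 2, 9 of 11 at Stage 3+DMSO against Stage 1 and 11 of 11 with KPT. The number of members lower at Stage 3+DMSO against Stage 2 (2 in the main test) was 4 with median-ratio rescaling, 5 with limma-voom on recovered reads and 1 with the 2 groups alone. The number lower at Stage 3+DMSO against Stage 1 (3) was 5 with no filter, 6 with rescaling and 6 with limma-voom. Leaving out single libraries gave 2 to 4 higher and 4 to 8 lower at Stage 2 against Stage 1, 8 to 9 and 1 to 2 at Stage 3+DMSO against Stage 2, 7 to 8 and 3 to 4 at Stage 3+DMSO against Stage 1, and 8 to 9 and 3 to 5 with KPT. The cause of these shifts was not tested, and the runs with a library left out also hold fewer samples.

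The replicate block gave 3 higher and 7 lower, 8 and 2, 8 and 3, and 8 and 4 in the same order of comparisons. Same-numbered libraries of different groups showed little shared deviation (r -0.131 to 0.0748 over 18 pairs, 0 above 0.1). Pairs of different numbers had r of -0.161 to 0.227, and 5 of 12 libraries correlated best with their own number. With 3 libraries per group, such correlations cannot show whether libraries of equal number share an animal or batch. Without replicate 1 of every group the counts were 3 and 6, 9 and 2, 7 and 3, and 8 and 3. The 13 untested members were too low for a test at this depth.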
